A study of Homo sapiens with 5 samples.

Results

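BIRC6, HUWE1, HERC1, HERC2, HECTD4, UBR4, MYCBP2 and RNF213 are giant enzymes of the ubiquitin system, and their messenger RNAs were compared between weakly and strongly adherent breast cancer cells. The 8 genes were chosen by symbol with their difference between these groups already known, so that difference is described below and not tested. All 8 were among the 25382 genes of the count table, and all 8 were among the 13297 genes with enough counts to be tested.

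MDA-MB231 is an established human breast cancer line, cultured here in DMEM with Fetal Bovine Serum and antibiotic/antimycotic. Shear stress was used to isolate cells of weak and of strong adhesion from it, and neither group carries a label of a drug or a genetic change. Bulk RNA was sequenced from 3 weakly adherent samples, dated 6, 12 and 15 March, and from 2 strongly adherent samples, dated 6 and 15 March. The groups come from 1 line and are defined by the shear itself, so a prior difference and a response to the separation cannot be told apart. The labels do not say whether samples were separate cultures, so p-values measure the spread between the samples at hand alone, and that spread may be technical.

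A ubiquitin ligase is the last enzyme of a relay in which an E1 enzyme activates ubiquitin, an E2 enzyme carries it and the ligase directs it onto a substrate, often marking that substrate for the proteasome. HECT ligases take the ubiquitin onto a cysteine near their C-terminus before passing it on, whereas RING ligases hold the E2 beside the substrate. BIRC6 carries its own E2-type domain and blocks caspases, UBR4 recognises destabilising protein ends, MYCBP2 relays ubiquitin between cysteines of an unusual RING module, and RNF213 joins a motor-like ATPase to a RING domain.

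The coding stretch around the cysteine codon near the C-terminus is shown for HUWE1, HERC1, HERC2 and HECTD4, because it is where the HECT members can be laid side by side. Each run of 63 bases is read 5′ to 3′ from the longest coding transcript of GENCODE release 29, which is annotated on GRCh38. The capitals mark a cysteine codon that directly follows a threonine codon within the last 80 codons. A leucine and a proline codon stand just before the last codon of each run.
HUWE1: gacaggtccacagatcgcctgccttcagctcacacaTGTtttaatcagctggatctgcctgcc
HERC1: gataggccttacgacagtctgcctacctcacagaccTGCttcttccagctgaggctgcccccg
HERC2: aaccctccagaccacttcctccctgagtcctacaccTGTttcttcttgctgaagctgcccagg
HECTD4: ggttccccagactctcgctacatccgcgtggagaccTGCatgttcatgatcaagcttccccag

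In HUWE1 the capitals are codon 4341 of 4374. In HERC1 they are codon 4811 of 4861, in HERC2 codon 4762 of 4834, and in HECTD4 codon 4384 of 4416. Threonine-cysteine pairs in that window numbered 1 in HUWE1, HERC1 and HERC2 and 2 in HECTD4, of which 1 had the leucine and proline codons after it. Set base against base, the stretches of HERC1 and HERC2 were equal at 61.9% of positions and those of HUWE1 and HERC1 at 58.7%. HERC1 and HECTD4 shared 49.2% of bases, as did HERC2 and HECTD4, while HUWE1 and HERC2 shared 47.6% and HUWE1 and HECTD4 31.7%. Over this stretch the HERC pair was the most alike of the 6 pairs and HUWE1 with HECTD4 the least alike. Protein sequences were not used here.

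The 8 genes lie on 7 chromosomes and share great length. HERC1 and HERC2 are both on chromosome 15, BIRC6 is on chromosome 2, HUWE1 on X, HECTD4 on 12, UBR4 on 1, MYCBP2 on 13 and RNF213 on 17. Their longest coding sequences ran from 13.12 kb in HUWE1 to 15.77 kb in RNF213, or 4374 to 5256 codons, spread over 69 exons in RNF213 to 106 exons in UBR4. The genes themselves spanned 135.8 kb (UBR4) to 282.4 kb (MYCBP2). Gene coordinates on hg19, the build of the deposited counts, were not used here.

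Promoter sequence was searched in RefSeq windows on GRCh38.p14, from 250 bases before to 50 bases after each gene start, on both strands, in 35116 windows of all genes. Windows were found for all 8 genes, with 3 for HUWE1, 2 for BIRC6 and 1 for each other member. A member was counted if any of its windows held the letters, while the share of all windows counts each window singly. These units differ for HUWE1 and BIRC6. The GC box GGGCGG was present in 8 of 8 members and in 45.0% of all windows. The CCAAT box (CCAAT) was present in HUWE1 and HERC2 and in 34.6% of all windows, and the ETS core CCGGAAG in BIRC6 and HERC2 and in 10.3%. No member window held TATAAA (11.5% of all windows), CACGTG (7.26%), TGACGTCA (1.85%), CATTCC (14.0%), or TTTGAA or TTCGAA (16.4%). Neither did any hold the AP-1 letters TGACTCA or TGAGTCA (4.95%), the E2F letters TTTCGCGC, TTTGGCGC, TTTCCCGC or TTTGCCGC (3.31%), the NRF1 site (1.24%), the SRF site (0.0342%) or the core of the interferon-stimulated response element (3.57%). These matches describe letters only, and nothing about a factor is drawn from them. The 110 bases before the start are shown for HERC2, the member with both CCAAT and GC boxes close to its start, and for RNF213, whose window is a repeat of GC boxes. Capitals mark GGGCGG or its reverse complement CCGCCC in both genes, and ATTGG, the reverse complement of CCAAT, in HERC2.
HERC2, chr15:28322180-28322289, minus strand: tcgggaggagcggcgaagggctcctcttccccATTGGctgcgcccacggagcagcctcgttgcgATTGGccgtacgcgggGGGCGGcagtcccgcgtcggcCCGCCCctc
RNF213, chr17:80260742-80260851, plus strand: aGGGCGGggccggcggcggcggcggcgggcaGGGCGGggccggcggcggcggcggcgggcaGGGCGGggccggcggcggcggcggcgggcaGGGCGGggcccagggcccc

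In RNF213 the 250 bases before the start held 8 GC boxes, spaced by a unit of 30 bases, and 97.7% of bases equalled the base 1 unit on. G and C made up 96.4% of those bases in RNF213. In the other members that share was 56.0% to 76.4%, and the median of all windows was 58.0%.

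Depth was even: 19630386 to 21707459 reads were counted in genes per library. Reads not unique to 1 place were 16.0% to 16.8% of all rows of the count table. The labelled cell line was checked against its markers. VIM (2460 to 2750 CPM, the share of counts scaled by edgeR's TMM method) and CD44 (1470 to 1700 CPM) were high, as a mesenchymal-like breast line shows, and KRT8, KRT18 and KRT19 were at 234 to 728 CPM. Of the luminal and receptor genes that a triple-negative line should lack, ESR1 and PGR had 0 counts and CDH1 was at 1.18 to 2.07 CPM, but GATA3 was at 12.4 to 14.0 CPM and ERBB2 at 82.8 to 93.9 CPM. Among markers of other cell types CD3E and DCN had 0 counts, PTPRC had 1 to 5, CDH5 0 to 1 and VWF 1 to 3. Counts above that were found for COL1A1 (159 to 273), PDGFRB (59 to 80), CD14 (19 to 40), PECAM1 (15 to 33) and LUM (5 to 28).

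All 8 giant ligase messages were higher in the weakly adherent samples. The log2 difference, weakly minus strongly adherent, ran from 0.69 (HERC2) to 1.18 (BIRC6) with a median of 0.80, while the median over all 13297 tested genes was -5e-04. In every member all 3 weakly adherent libraries lay above both strongly adherent ones, a pattern seen in 15.5% of all tested genes, while 14.5% showed the reverse. By edgeR's quasi-likelihood test 8 of 8 members passed an adjusted p of 0.05 as higher, where 1.77% of all tested genes did, 0.918% passed as lower and 2.68% in either direction; the members were chosen on this contrast, so nothing is read from that count. Bulk RNA does not tell more cells with the message apart from more message per cell.

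**Figure D1:**
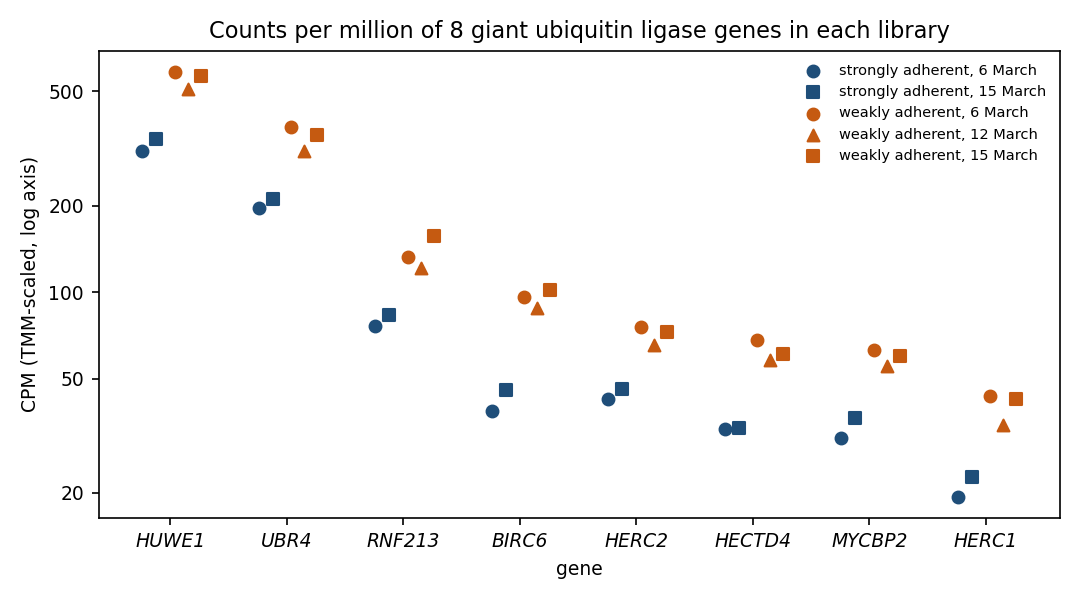
CPM of each giant ubiquitin ligase gene (x axis) in each of the 5 libraries (y axis, TMM-scaled CPM, log axis), with 1 point per library and colour by group. Within each gene the 3 weakly adherent points lie above both strongly adherent points, from 19.4 CPM for HERC1 at the lowest to 584 CPM for HUWE1 at the highest.

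HUWE1, a HECT ligase whose reported substrates include MCL1, MYC and CDC6, had the highest level per length of the 8. It lay at 309 and 340 CPM in the libraries of strongly adherent cells of 6 and 15 March, and at 584, 511 and 565 CPM in those of weakly adherent cells of 6, 12 and 15 March, the order in which values are given from here on. Both strongly adherent values were below every weakly adherent one. Group means were 325 ± 21.9 (SD, n = 2) and 553 ± 37.9 CPM (SD, n = 3), a log2 difference of 0.77 (SE 0.08) or 1.71-fold.

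HERC1, a HECT ligase with RCC1-like repeats, had the lowest level per length. Its CPM were 19.4 and 22.7 in the strongly adherent libraries and 43.4, 34.4 and 42.5 in the weakly adherent ones. The library of 12 March was the lowest of the weakly adherent 3 and still 1.51 times the highest strongly adherent value. The means of HERC1 were 21.1 ± 2.32 (n = 2) and 40.1 ± 4.98 CPM (n = 3), with a log2 difference of 0.93 (SE 0.12) or 1.90-fold. Its lowest library, the strongly adherent one of 6 March, held 413 reads, for which counting error alone is 4.92%; the HUWE1 libraries held up to 12424 reads.

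HERC2, a HECT ligase known from DNA damage signalling and from the pigmentation locus beside OCA2, had the smallest difference of the 8. It was measured at 42.3 and 45.9 CPM in strongly adherent and at 75.6, 65.5 and 72.8 CPM in weakly adherent libraries, again without overlap. Means were 44.1 ± 2.54 (n = 2) and 71.3 ± 5.22 CPM (n = 3), and the log2 difference was 0.69 (SE 0.09) or 1.62-fold. HERC2 has near-identical partial copies, so reads may be split between them or lost as not unique. The copy HERC2P2 was counted at 26.2 and 27.0 CPM in strongly adherent and 27.6, 26.7 and 31.0 CPM in weakly adherent libraries, and these ranges overlap. By edgeR its log2 difference was 0.10 (SE 0.10, adjusted p = 0.786). HERC2P4 (0.31, SE 0.27, adjusted p = 0.714), HERC2P7 (0.57, SE 0.38, adjusted p = 0.592) and HERC2P9 (0.19, SE 0.19, adjusted p = 0.787) did not pass either. HERC2P3, with 1 to 6 reads, and HERC2P10, with 0 to 3, were too low to test.

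HECTD4, a HECT-domain protein whose substrates are little known, had nearly equal strongly adherent values of 33.4 and 33.5 CPM. The weakly adherent values were 68.3, 57.8 and 61.1 CPM, the lowest of them 1.73 times the highest strongly adherent value. The means were 33.5 ± 0.0548 (n = 2) and 62.4 ± 5.37 CPM (n = 3), a log2 difference of 0.90 (SE 0.09) or 1.87-fold.

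UBR4, a UBR-box protein of the N-degron pathway, came after HUWE1 in level per length. It lay at 196 and 211 CPM in strongly adherent and at 376, 311 and 351 CPM in weakly adherent libraries. The weakly adherent library of 12 March was again the lowest of its group, at 1.48 times the higher strongly adherent library. UBR4 means were 204 ± 10.1 (n = 2) and 346 ± 32.5 CPM (n = 3), a log2 difference of 0.76 (SE 0.09) or 1.70-fold. HUWE1 and UBR4 together held 64.9% to 67.7% of all reads of the 8 genes in each library.

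BIRC6, the inhibitor-of-apoptosis protein that carries its own E2-type domain, had the largest difference. It was at 38.6 and 45.5 CPM in the strongly adherent and at 96.5, 87.7 and 102 CPM in the weakly adherent libraries. Its lowest weakly adherent value was 1.93 times the highest strongly adherent one, the widest gap among the 8 genes. The means were 42.0 ± 4.88 (n = 2) and 95.3 ± 7.07 CPM (n = 3), with a log2 difference of 1.18 (SE 0.10) or 2.27-fold.

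MYCBP2, the RING-Cys-relay ligase named for its binding to MYC and known from axon degeneration, was at 31.0 and 36.3 CPM in strongly adherent and at 62.8, 55.4 and 60.0 CPM in weakly adherent libraries. These ranges did not overlap. Its means were 33.6 ± 3.71 (n = 2) and 59.4 ± 3.74 CPM (n = 3), a log2 difference of 0.82 (SE 0.10) or 1.76-fold. The antisense gene MYCBP2-AS1, which overlaps it, held 0 to 2 reads per library. The other overlapping genes found in the count table, MIR558 in BIRC6, MIR98 and MIRLET7F2 in HUWE1 and MIR6861 in HECTD4, held 0 reads in every library.

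RNF213, the ATPase and ligase known as a susceptibility gene of moyamoya disease and for coating intracellular bacteria with ubiquitin, was at 76.1 and 83.0 CPM in strongly adherent libraries. In weakly adherent libraries it was at 133, 121 and 157 CPM, the highest being that of 15 March. The means were 79.5 ± 4.83 (n = 2) and 137 ± 18.3 CPM (n = 3), a log2 difference of 0.78 (SE 0.11) or 1.72-fold.

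The 8 genes followed a like order from library to library. The strongly adherent library of 6 March was the lowest of the 5 for 8 of 8 genes, though in HECTD4 only at 33.4 against 33.5 CPM. The members were chosen with the group difference known, so a strongly adherent library being lowest is no separate support. In 8 of 8 genes the weakly adherent library of 12 March lay below the mean of the other weakly adherent ones, by 0.15 to 0.32 on the log2 scale. How many of all tested genes show either order was not counted. Each gene was also centred on its own mean log2 CPM. The members' medians were then -0.53 and -0.4 in strongly and 0.42, 0.18 and 0.34 in weakly adherent libraries. Other genes with at least 10 kb of coding sequence had a like profile, at -0.51 and -0.28 and at 0.27, 0.17 and 0.38. The 8 genes together took 0.0738% and 0.083% of gene counts in the strongly adherent libraries and 0.142%, 0.124% and 0.143% in the weakly adherent ones. Group means of that share were 0.0784% ± 0.00652 (n = 2) and 0.136% ± 0.0106 (n = 3), a ratio of 1.74.

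Within the shared dates, where each group has 1 library and no test is possible, the 8 genes were higher in the weakly adherent library on both days. These libraries are part of the contrast on which the genes were chosen, so the pairs are no separate support. The share of all tested genes higher on both days was not counted. All weakly adherent libraries lay above both strongly adherent ones in 15.5% of all tested genes. The same held in 53 of 68 other genes with at least 10 kb of coding sequence. The median log2 difference was 0.97 on 6 March and 0.80 on 15 March. On 6 March the values were 1.32 for BIRC6, 1.16 for HERC1, 1.03 for HECTD4, 1.01 for MYCBP2, 0.93 for UBR4, 0.92 for HUWE1, 0.84 for HERC2 and 0.81 for RNF213. On 15 March they were 1.16 for BIRC6, 0.92 for RNF213, 0.90 for HERC1, 0.87 for HECTD4, 0.73 for HUWE1, 0.73 for UBR4, 0.72 for MYCBP2 and 0.66 for HERC2. The difference of 15 March minus that of 6 March was negative in 7 genes, from -0.16 in BIRC6 to -0.29 in MYCBP2, and was 0.11 in RNF213. Whether it differs between the dates was not tested.

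**Figure D2:**
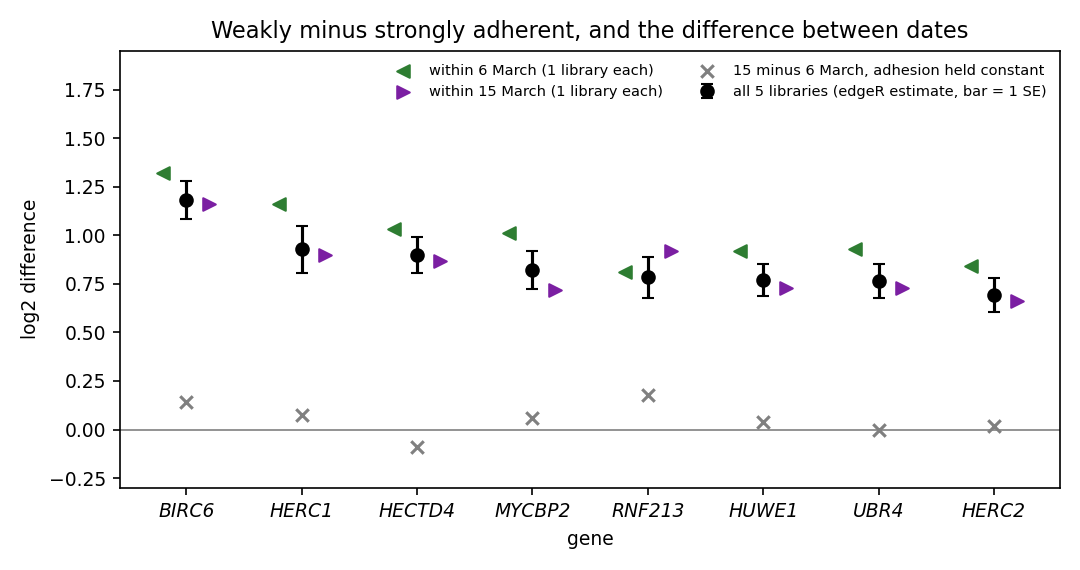
Log2 difference of each gene (x axis), weakly minus strongly adherent, over all 5 libraries (black, bar 1 SE) and within 6 March and within 15 March (triangles, 1 library each), with the difference between the dates as crosses. BIRC6 is highest at 1.18 and HERC2 lowest at 0.69, and the crosses lie between -0.09 and 0.18.

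The date itself gives a contrast that played no part in choosing the genes. In the 4 libraries of 6 and 15 March, with adhesion held constant, 0 of 8 members passed an adjusted p of 0.05 by edgeR, 0 by DESeq2 and 0 by limma-voom, where edgeR called 9.29% of 13249 tested genes, 6.74% as higher on 15 March and 2.55% as lower. At an unadjusted p under 0.05 there was 1 member, RNF213, against 22.5% of all tested genes. RNF213 was higher on 15 March by 0.18 (SE 0.07, adjusted p = 0.0884). BIRC6 was higher by 0.14 (SE 0.07, adjusted p = 0.24), HUWE1 by 0.04 (SE 0.07, adjusted p = 0.79), HERC1 by 0.07 (SE 0.09, adjusted p = 0.684), HERC2 by 0.02 (SE 0.08, adjusted p = 0.913) and MYCBP2 by 0.06 (SE 0.08, adjusted p = 0.713). The values of HECTD4 and UBR4 were -0.09 (SE 0.08, adjusted p = 0.536) and -0.0040 (SE 0.07, adjusted p = 0.984). The median of the 8 was 0.05, and it became -0.08 once the trend with coding length was removed, which also turned the sign in HUWE1 (-0.09), HERC1 (-0.06), HERC2 (-0.11) and MYCBP2 (-0.07). This fit has 1 residual degree of freedom, so a p above the threshold does not show that the dates were alike.

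Levels between genes can be compared only per length. In CPM per kilobase of coding sequence, averaged over 5 libraries, the order was HUWE1 at 35.2, UBR4 at 18.6, RNF213 at 7.23, BIRC6 at 5.08, HERC2 at 4.17, HECTD4 at 3.84, MYCBP2 at 3.53 and HERC1 at 2.23. In both groups the libraries of HUWE1 lay above those of UBR4, those of UBR4 above RNF213, those of RNF213 above BIRC6 and those of MYCBP2 above HERC1. BIRC6 and HERC2 were apart in weakly adherent libraries (6.54 ± 0.486 and 4.92 ± 0.36, n = 3) and overlapped in strongly adherent ones (2.88 ± 0.335 and 3.04 ± 0.175, n = 2). HERC2 and HECTD4 overlapped in the weakly adherent libraries and were apart in the strongly adherent ones, and HECTD4 and MYCBP2 overlapped in both groups. Dividing by the longest transcript in place of the coding sequence swapped HECTD4 (3.23) and MYCBP2 (3.33). HUWE1 was above the median of 11762 tested genes, 21.1 on the same scale, and the other 7 were below it. UBR4 and RNF213 lay between that median and the lower quartile of 6.28. This scale divides by coding length alone, so reads from untranslated parts raise a gene's value. The median of all genes per transcript length is not given here, so the members' place among all genes holds for this scale only.

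**Figure D3:**
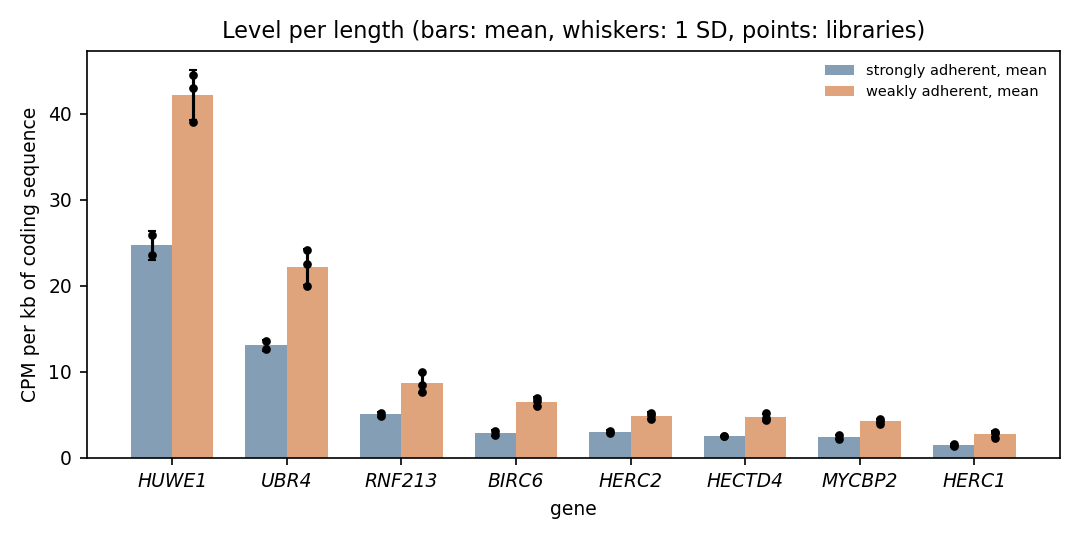
CPM per kilobase of coding sequence (y axis) of each gene (x axis), as group means with 1 SD and 1 point per library. HUWE1 stands highest, at 24.7 in strongly and 42.2 in weakly adherent libraries, and HERC1 lowest, at 1.45 and 2.75.

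The difference between the groups moved with coding length across all genes, so the members were set beside genes of like length. Of 68 other tested genes with at least 10 kb of coding sequence, 62 had a positive log2 difference, the median was 0.68, and 33 (48.5%) were called higher and 0 lower. In 53 of the 68 all weakly adherent libraries lay above both strongly adherent ones. The members' median of 0.80 lay between that median and the upper quartile of those 68 genes, 0.89. BIRC6 was above 63 of the 68, HERC1 above 54, HECTD4 above 51, MYCBP2 above 42, HUWE1 and RNF213 above 40, UBR4 above 39 and HERC2 above 35. Among PI3K-like giant kinases 4 of 6 were called higher, with a median of 0.71, PRKDC, the DNA-dependent kinase, at 0.90 (SE 0.09, adjusted p = 0.000194) and TRRAP, a scaffold of histone acetylation, at 0.64 (SE 0.09, adjusted p = 0.00215). Among plakins, nesprins, spectrins and AHNAK proteins, which are large cytoskeletal proteins, 8 of 11 were called higher, with a median of 0.67 and DST at 1.19 (SE 0.09, adjusted p = 5.53e-05). With the length trend removed, as described next, TRRAP (0.13, adjusted p = 0.651) and DST (0.26, adjusted p = 0.134) were no longer called and PRKDC (0.37, adjusted p = 0.0277) was; with block and trend DST was called (0.25, adjusted p = 0.00681).

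A trend with coding length, a spline fitted in each library over 11762 genes, had values of 0.58 to 0.70 on the log2 scale at the members' lengths. With that trend removed the members' median was 0.20, BIRC6 being at 0.54, HECTD4 at 0.32, HERC1 at 0.29, MYCBP2 at 0.21, HUWE1 at 0.19, RNF213 at 0.09, UBR4 at 0.08 and HERC2 at 0.06. All 8 remained above 0, and 1 of 8, BIRC6, was called higher, where 0.952% of the genes with a known coding length were and 2.1% were called in either direction. With the date block and the trend removed 4 of 8, BIRC6, HECTD4, HERC1 and HUWE1, were called higher, where 4.53% of those genes were. Nothing is read from either count, nor from all 8 lying above 0, because the members were chosen on this contrast. How many other long genes lay above the trend is not given here. Among the 8 members, whose lengths are close, the correlation of the log2 difference with coding length was -0.07 (Pearson r over 8 genes that share libraries, a description only).

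**Figure D4:**
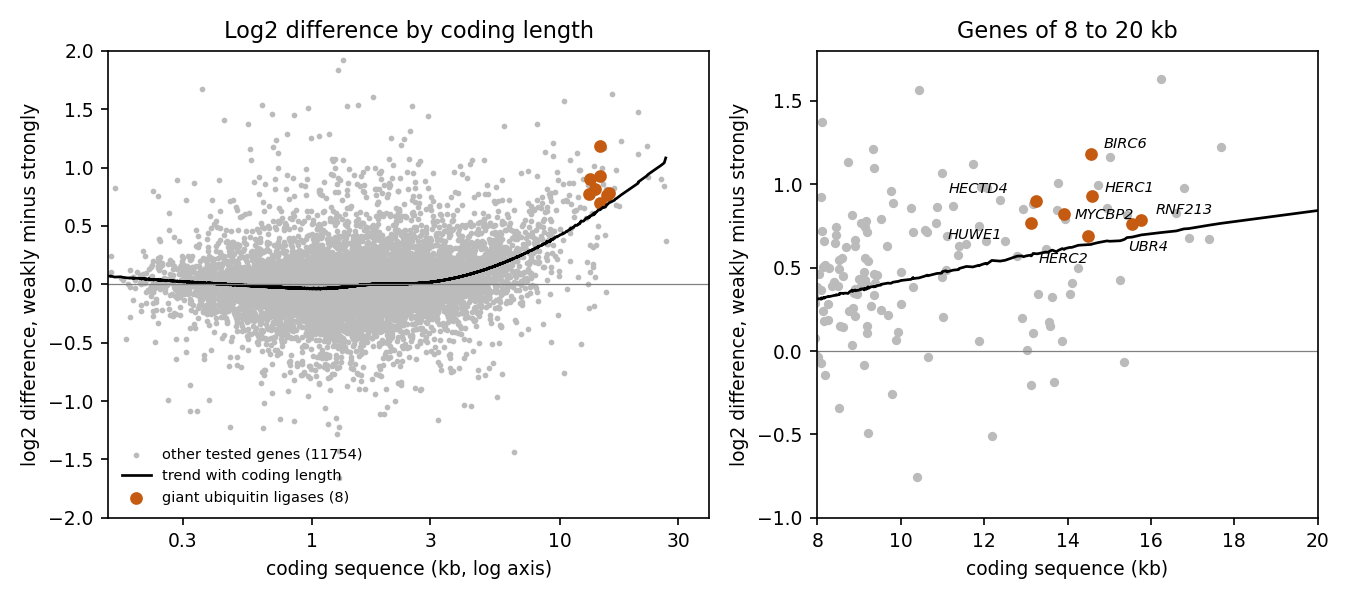
Log2 difference, weakly minus strongly adherent (y axis), against coding length (x axis, log scale on the left; 8 to 20 kb on the right) for 11754 other tested genes in grey and the 8 giant ligases in orange, with the trend as a line. The 8 members, which were chosen on this contrast, lie above the trend, BIRC6 farthest, by 0.54.

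The genes whose profile over the 5 libraries was nearest the members' mean profile, among 11555 candidates of at least 2 CPM, were long genes of other functions. DYNC1H1, the heavy chain of cytoplasmic dynein, differed by a mean of 0.0288 on the log2 scale per library and was at 565 and 611 CPM in strongly and 1070, 932 and 1050 CPM in weakly adherent libraries. Next came MACF1, a cytoskeletal crosslinker (0.033; log2 difference 0.92, but -0.02 with the length trend removed), KMT2D, a histone methyltransferase (0.0455), FRYL (0.0515) and VPS13D, a lipid transfer protein (0.0518). Coding sequences of these 5 genes ran from 9039 bases in FRYL to 22776 bases in MACF1. The members' own distances from their mean profile ran from 0.0332 (MYCBP2) to 0.1585 (BIRC6).

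Of 185 other genes of the ubiquitin system, in 11 lists, 181 were tested. In weakly adherent samples 8 of them were called higher (4.42%) and 2 lower (1.1%), where 1.77% of all tested genes were called higher and 0.918% lower. With the date as a block, which leaves 1 residual degree of freedom, these numbers were 22 and 16, where 6.2% of all tested genes were called higher and 5.28% lower. Among the other HECT ligases 3 of 23 rose and 0 fell, with a median of 0.04. Among the other long ligases 4 of 13 rose and 0 fell, with a median of 0.29 and all 13 positive. With the length trend removed 0 genes of either list were called, and the medians were 0.03 and 0.10. Over all 11 lists 2 genes were then called higher and 1 lower. Of all genes with a coding length 0.952% were then called higher and 2.1% in either direction. RBBP6, a RING ligase that binds p53 and RB, was at 68.1 and 69.3 CPM in strongly and 107, 93.3 and 91.9 CPM in weakly adherent libraries, a rise of 0.50 (SE 0.08, adjusted p = 0.00702). TRIP12, named after its values were seen, rose by 0.29 (SE 0.07, adjusted p = 0.0448). With the 6 March library of strongly adherent cells left out the adjusted p was 0.0664 for RBBP6 and 0.287 for TRIP12. The TRIP12 call was lost without any 1 of the 5 libraries (adjusted p 0.0614 to 0.287). With the length trend removed TRIP12 was at 0.10 (adjusted p = 0.775) and RBBP6 at 0.35 (adjusted p = 0.0502); RBBP6 was called with the trend fitted without the members (0.35, adjusted p = 0.0495) and with block and trend (0.37, adjusted p = 1.47e-05).

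The UBR family held 1 call, higher, in 7 tested genes, with a median of 0.23, where 2.68% of all tested genes were called in either direction. UBR2, an N-degron ligase, was 0.26 higher (SE 0.07, adjusted p = 0.0862; 0.000509 with the date block). Of 12 tested IAP and caspase genes, the company of BIRC6, 0 were called by edgeR, DESeq2 or limma-voom, 4 had an unadjusted p under 0.05, and the median was -0.04. BIRC3, an IAP ligase of NF-kB signalling, was at 124 and 142 CPM in strongly and 89.3, 120 and 99.5 CPM in weakly adherent libraries. By edgeR the difference was -0.37 (SE 0.12, adjusted p = 0.178), and -0.49 with the date block (adjusted p = 2.73e-11). The block fit has 1 residual degree of freedom. In it the library of 12 March, alone on its date, adds nothing to the group difference. For BIRC3 that library, at 120 CPM, is the weakly adherent one nearest the strongly adherent values.

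Deubiquitinases, which remove ubiquitin, had 4 of 39 tested genes higher and 0 lower, with a median of 0.03. Of all tested genes 1.77% were called higher and 0.918% lower. USP34, itself a long gene of 10638 coding bases, was at 82.6 and 93.0 CPM in strongly and 141, 137 and 154 CPM in weakly adherent libraries, a rise of 0.71 (SE 0.08, adjusted p = 0.000721). USP24 rose by 0.65 (SE 0.08, adjusted p = 0.000905). USP9X and USP13, named after their values were seen, rose by 0.42 (SE 0.07, adjusted p = 0.00806) and 0.41 (SE 0.09, adjusted p = 0.0262). The calls of USP34 and USP24 held with each library left out. With the 6 March library of strongly adherent cells left out the adjusted p was 0.155 for USP9X and 0.161 for USP13, and USP13 was also lost without the strongly adherent one of 15 March or the weakly adherent one of 12 March (0.115 in both). With the length trend removed USP34 (0.26, adjusted p = 0.122) and USP9X (0.13, adjusted p = 0.603) were lost, and USP24 (0.35, adjusted p = 0.041) and USP13 (0.40, adjusted p = 0.0283) were not. With block and trend USP34 was called (0.27, adjusted p = 0.00318).

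Upstream and downstream of the ligases no call was made in the ubiquitin and E1 genes (0 of 9), the E2 enzymes (0 of 29), the cullins (0 of 12), the ISG15 conjugation genes (0 of 6) or the proteasome (0 of 32) by edgeR, where 2.68% of all tested genes were called, so these counts are near the background. At an unadjusted p under 0.05 these lists held 2, 4, 2, 3 and 0 genes, DESeq2 called 1 E2 enzyme, and limma-voom called 0 in each. Proteasome subunits lay between -0.12 and 0.09, with a median of 0.00, PSMD2 being at -0.12 (SE 0.08, adjusted p = 0.595) and PSMA4 at 0.09 (SE 0.07, adjusted p = 0.675). Of the genes that encode ubiquitin itself, RPS27A was at 0.30 (SE 0.08, adjusted p = 0.0874; 0.000105 with the date block). The cullin partner RBX1 was at 0.21 (SE 0.09, adjusted p = 0.288) and CUL9 at 0.20 (SE 0.09, adjusted p = 0.32; 0.0277 with the date block), with CUL9 at -0.09 once the length trend was removed. In the ISG15 list 5 of 6 genes were negative and the median was -0.27, with ISG15 at -0.31 (SE 0.10, adjusted p = 0.165; 7.77e-05 with the date block) and HERC5, its ligase, at -0.29 (SE 0.09, adjusted p = 0.143; 0.000142 with the date block). UBE2C, the E2 of the anaphase-promoting complex, was at 0.46 (SE 0.15, adjusted p = 0.199; 5.47e-07 with the date block) and UBE2G1 at 0.28 (SE 0.08, adjusted p = 0.0943; 0.012 with the date block).

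Of 14 tested substrates and partners reported for the members, 0 rose and 2 fell, with a median of -0.07. Of all tested genes 1.77% were called higher and 0.918% lower. CDC6, a replication licensing factor reported as a HUWE1 substrate, was at 171 and 192 CPM in strongly and at 122, 140 and 136 CPM in weakly adherent libraries, without overlap, and fell by 0.45 on the log2 scale (SE 0.08, adjusted p = 0.0109). MYC, also reported as a HUWE1 substrate, was at 159 and 143 CPM in strongly and 127, 107 and 115 CPM in weakly adherent libraries and fell by 0.37 (SE 0.09, adjusted p = 0.0376). The CDC6 call was lost without the strongly adherent library of 15 March (adjusted p = 0.109). MYC was lost without the 6 March library of strongly adherent cells (0.322), the weakly adherent one of 12 March (0.156) or that of 15 March (0.123), and, at -0.35, with the length trend removed (0.0525); with block and trend it was called (-0.30, adjusted p = 0.000579). These are messenger RNA levels, and the proteins on which the ligases act were not measured.

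**Figure D5:**
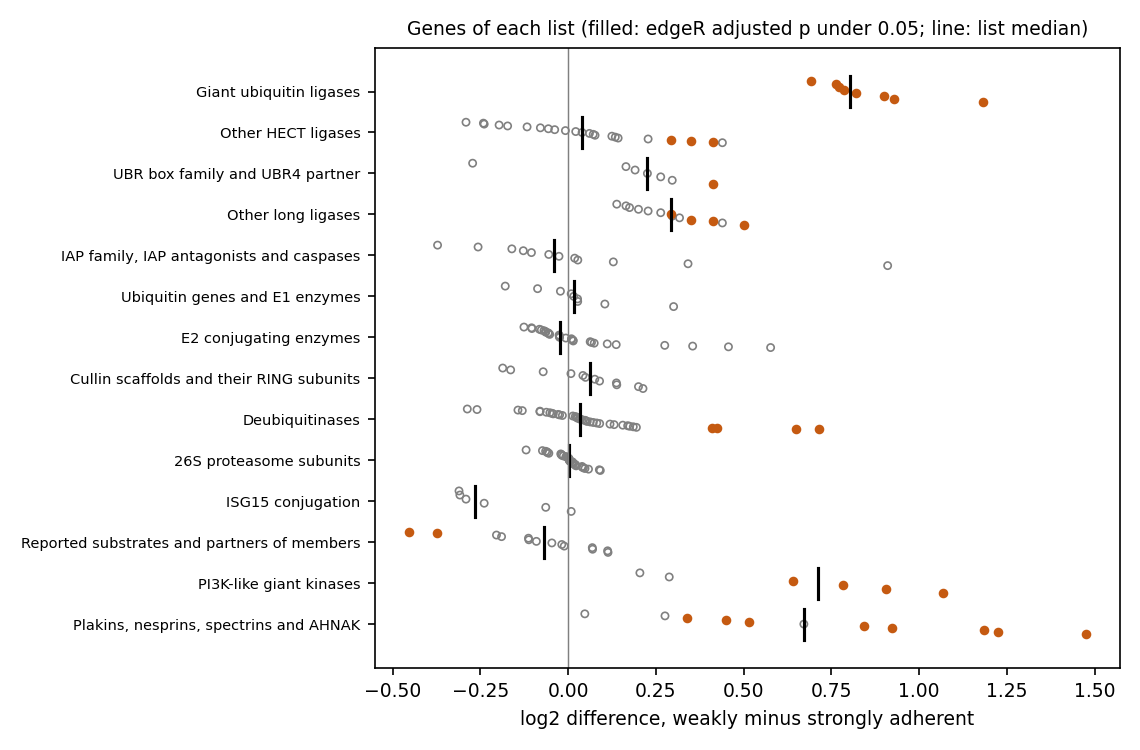
Log2 difference, weakly minus strongly adherent (x axis), of each tested gene in each list (rows), filled where edgeR's adjusted p was under 0.05, with a line at the list median. The 8 giant ligases lie at 0.69 to 1.18, while the proteasome subunits lie between -0.12 and 0.09.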

How the data were processed

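The 8 members and all gene lists were chosen with earlier results of these data known. Libraries of total RNA were made with the TruSeq Stranded kit and read as 50 bp single ends, per the labels' protocols. The authors deposited raw counts per gene symbol and log2 values. STAR, HTSeq, DESeq2, cutadapt, FastQC and the build hg19 are listed in the submitters' processing notes. No version, annotation or strand setting was found (not given in the sources used here), and overlapping or antisense genes may therefore share reads. On the log2 scale each deposited value is the count over 1 size factor per library, plus 1, to within 0.000521 reads. The 5 HTSeq rows, 26.2% to 27.4% of all reads listed, stayed out of library sizes and tests.

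The deposited counts entered edgeR 4.0.16 under R 4.3.3 (filterByExpr, TMM, robust quasi-likelihood fit, Benjamini-Hochberg over all tested genes, threshold 0.05), with 3 residual degrees of freedom and a biological coefficient of variation of 7.91%. Differences within dates are of log2 CPM with a prior count of 2. The date contrast used the 4 libraries of 6 and 15 March with adhesion as covariate. Coding lengths came by symbol from GENCODE 29 (88.5% of tested genes), and their trend was removed as a natural spline with 5 degrees of freedom.

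Titles give dates, so libraries of the same date were taken as pairs in the fit with a block. The correlation of their deviations from group means was 0.34 (6 March) and 0.20 (15 March). The library of 12 March has no partner, so it adds nothing to the group difference in that fit. Its correlation was 0.16 with the strongly adherent library of 15 March, near that of the 15 March pair, and -0.16 with that of 6 March. Between replicates of a group the chi-square over its degrees of freedom was 7.54 to 12.6, more than counting error alone gives. That does not show whether the samples were separate cultures. Genes are named by a rule: the members, the 2 tested genes with the smallest p in each list, the 5 nearest profiles, and HERC2 copies and RNAs overlapping members. Some genes under this rule, and 1 marker, are not reported here. Alternatives were DESeq2 1.42.0 (size factors, Wald test), limma 3.58.1 (voom), other filters, the date block, the length trend and each library left out; the trend fitted without the members was added after seeing the data.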

Additional observations from a re-analysis of the deposited data

How the results depend on the processing

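The members' median log2 difference of 0.80 was 0.87 with the date as a block, 0.72 to 0.88 with each library left out, and 0.80 with DESeq2's size factors, DESeq2, limma-voom, either filter and the authors' log2 values. It was 0.20 with the coding length trend removed, 0.22 with that trend fitted without the members and 0.22 with block and trend, and within 6 and 15 March it was 0.31 and 0.19 with the trend removed. Genes of like length had medians of 0.60 to 0.79 with each library left out and 0.50 from 8 kb on. Over all genes 235 were called higher and 122 lower. Without a filter 203 were lower, and with the trend removed 112 were higher (113 with the trend fitted without the members). With the date as a block 825 were higher and 702 lower, with block and trend 533 and 660, and with each library left out 82 to 238 and 34 to 103. The 8 and 2 calls in the pathway lists became 2 and 1 with the trend removed (3 and 1 with the trend fitted without the members), 22 and 16 with the block, 10 and 17 with block and trend, and 2 to 11 and 1 to 2 with each library left out. CUL9 turned to -0.09 with the trend removed, -0.08 with the trend fitted without the members and -0.07 with block and trend, and MACF1 to -0.02 with the trend removed and -0.01 with block and trend. Between the dates DESeq2 called 160 higher and 43 lower on 15 March, against 893 and 338 by edgeR, and with the trend removed 657 were lower. There the members' median turned to -0.08, HUWE1 to -0.09, HERC1 to -0.06, HERC2 to -0.11 and MYCBP2 to -0.07. The cause of these changes was not tested. Counting error in the lowest library of each member was 1.23% to 4.92%.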

Other observations

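Of the 29 E2 conjugating enzymes tested, 0 were called between the adhesion groups by edgeR (4 at an unadjusted p under 0.05, 1 by DESeq2, 0 by limma-voom), and 10 were called between the dates. With adhesion held constant 8 of 29 were called higher and 2 lower on 15 March than on 6 March, where edgeR called 6.74% of all tested genes higher and 2.55% lower; DESeq2 called 5 of the 29 and limma-voom 10, and the median of the list was 0.01. UBE2D1, a broadly used partner of RING ligases, rose by 0.73 (SE 0.11, adjusted p = 2e-09) and UBE2E1 by 0.47 (SE 0.07, adjusted p = 6.68e-09). UBE2C and UBE2S, the E2 pair of the anaphase-promoting complex, fell by 0.33 (SE 0.07, adjusted p = 7.04e-05) and 0.32 (SE 0.07, adjusted p = 0.000164). These genes were picked after their values were seen, the fit has 1 residual degree of freedom, and the date is only what the sample titles give.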
